A study of Mus musculus with 28 samples.

Results

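The comparison set double knockout bone marrow-derived dendritic cells, labelled IFNARko;RelBko, against wild-type (WT) cells at 7 matched conditions. It holds 14 libraries, 7 double knockout and 7 WT, of the 28 in the series; RelBko and IFNARko single knockouts hold 7 libraries each. The conditions were a 1 h control, CpG DNA (ODN 1668, a ligand of the DNA sensor TLR9) at 1, 3 and 8 h, and high molecular weight Poly(I:C) (a mimic of double-stranded RNA) at 1, 3 and 8 h. Marrow from C57BL/6 mice had been grown with GM-CSF at 20 ng/ml and IL-4 at 10 ng/ml, so every group carries the same cytokine background. The CpG dose was 0.1 µM; titles put the Poly(I:C) dose at 10 ng/mL but the protocol text puts it at 10 µg/mL, so it is uncertain. The knockout alleles, the age and sex of the mice and any pooling of animals are not stated in the sources used here. The genotype labelled IFNAR is written IFNARko here.

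RelB is a DNA-binding subunit of NF-kB that acts mainly with p52 in the alternative NF-kB pathway, downstream of the kinase NIK, and it is abundant in maturing dendritic cells. IFNAR is the receptor of type I interferons; through JAK kinases and the transcription factors they activate it switches on interferon-stimulated genes, many of which restrict viruses. Dendritic cells secrete type I interferon after sensing DNA or RNA and respond to it themselves, so part of the response to either ligand passes through this receptor.

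Each genotype had 1 library per condition, so no group had replicates, and the 7 conditions served as repeats of the genotype difference. Nothing in the labels tells separate cultures or animals apart, so p-values reflect only how much these libraries vary, which may be technical. Depth ran from 3814916 reads (double knockout, CpG 8 h) to 42227938 reads (WT, CpG 8 h), and intervals on reads cover counting error only. Levels are in CPM, counts scaled to 1000000 per library. Differences are double knockout minus WT on the scale of log2(CPM + 1), with the standard error (SE) of the limma fit, and they understate the change of genes near or below 1 CPM. A gene was called at a Benjamini-Hochberg adjusted p under 0.05 over all genes tested. In bulk RNA, fewer cells of a type and less RNA per cell cannot be told apart.

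Over the 7 conditions, 8634 of 12571 genes tested (68.7%) were called. Of these, 6654 (52.9%) were higher and 1980 (15.8%) were lower in the double knockout. The balance depends on the scaling of the libraries: the median of all genes tested was +0.245 on the log2 scale, and scaling by median ratios moved it by 0.237 to 0.008. Under that scaling 3523 genes were higher (28%) and 3565 were lower (28.4%). All 1980 lower calls stayed lower under it, whereas 3523 of the 6654 higher calls stayed higher. The 100 most abundant genes took 199240 to 220978 CPM in double knockout libraries and 235987 to 265507 CPM in WT libraries. Small rises are therefore read against +0.245, and called genes named here keep their direction under median-ratio scaling unless stated. Calls of at least 1 log2 unit numbered 843 higher (6.71%) and 504 lower (4.01%), against 554 (4.41%) and 748 (5.95%) under median-ratio scaling, where 56.4% of genes were called in all.

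The targeted transcripts were still detected. Relb (chromosome 7, 19606217 to 19629438, mm10) had a lowest value of 96.4, a median of 109 and a highest value of 209 CPM in double knockout cells, against 93.9, 156 and 187 CPM in WT cells. The ranges overlapped, and the estimate of -0.10 ± 0.12 was not called (adjusted p = 0.45). Under median-ratio scaling it was -0.36 (adjusted p = 0.023). Counts over the whole gene cannot check the allele where a deleted part is not known. Ifnar1 (chromosome 16, 91485238 to 91507441), a chain of the receptor, averaged 87.1 CPM in double knockout cells and 124 CPM in WT cells. It was lower in 7 of 7 pairs (-0.53 ± 0.11, adjusted p = 0.0013). Ifnar2, the other chain, fell by 0.17 on the log2 scale (adjusted p = 0.034).

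Itgax and Cd74, looked at for the cell type, were abundant in both genotypes. Xcr1, Cd209a and Clec4a4, also in the dendritic cell lineage list, were below the filter of the fit. These levels do not settle the cell type by themselves. Itgax, which encodes CD11c, averaged 813 CPM in double knockout cells and 1028 CPM in WT cells, and Cd74, the MHC class II invariant chain, averaged 5507 CPM in double knockout cells and 5865 CPM in WT cells. Summed over 24 dendritic cell lineage genes, levels were 5745 to 6755 CPM in double knockout libraries and 7155 to 7852 CPM in WT libraries. Markers of other cells also moved with genotype. The 12 stromal markers summed to 38.8 to 68.1 CPM in double knockout libraries and 1.73 to 5.33 CPM in WT libraries. The 13 mast cell, basophil and eosinophil markers in the files summed to 80.7 to 100.3 CPM in double knockout libraries and 13.2 to 49.6 CPM in WT libraries. Their part in the differences given here was not tested.

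Interferon-stimulated antiviral genes formed the lowest-lying group. Of 59 genes listed, 56 were tested, and 48 were called lower and 0 higher in the double knockout, where 15.8% of all genes were called lower. Their median difference was -1.82, against +0.245 for all genes tested, and 39 of them fell by at least 1 log2 unit. Under median-ratio scaling 51 were called lower. The list summed to 2355 to 2808 CPM across the 7 double knockout libraries and 3334 to 14450 CPM across the 7 WT libraries. In WT cells the sum rose with time after either ligand, to 14450 CPM at 8 h of CpG and 12803 CPM at 8 h of Poly(I:C). In double knockout cells it was 2355 and 2808 CPM at those times.

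**Figure D1:**
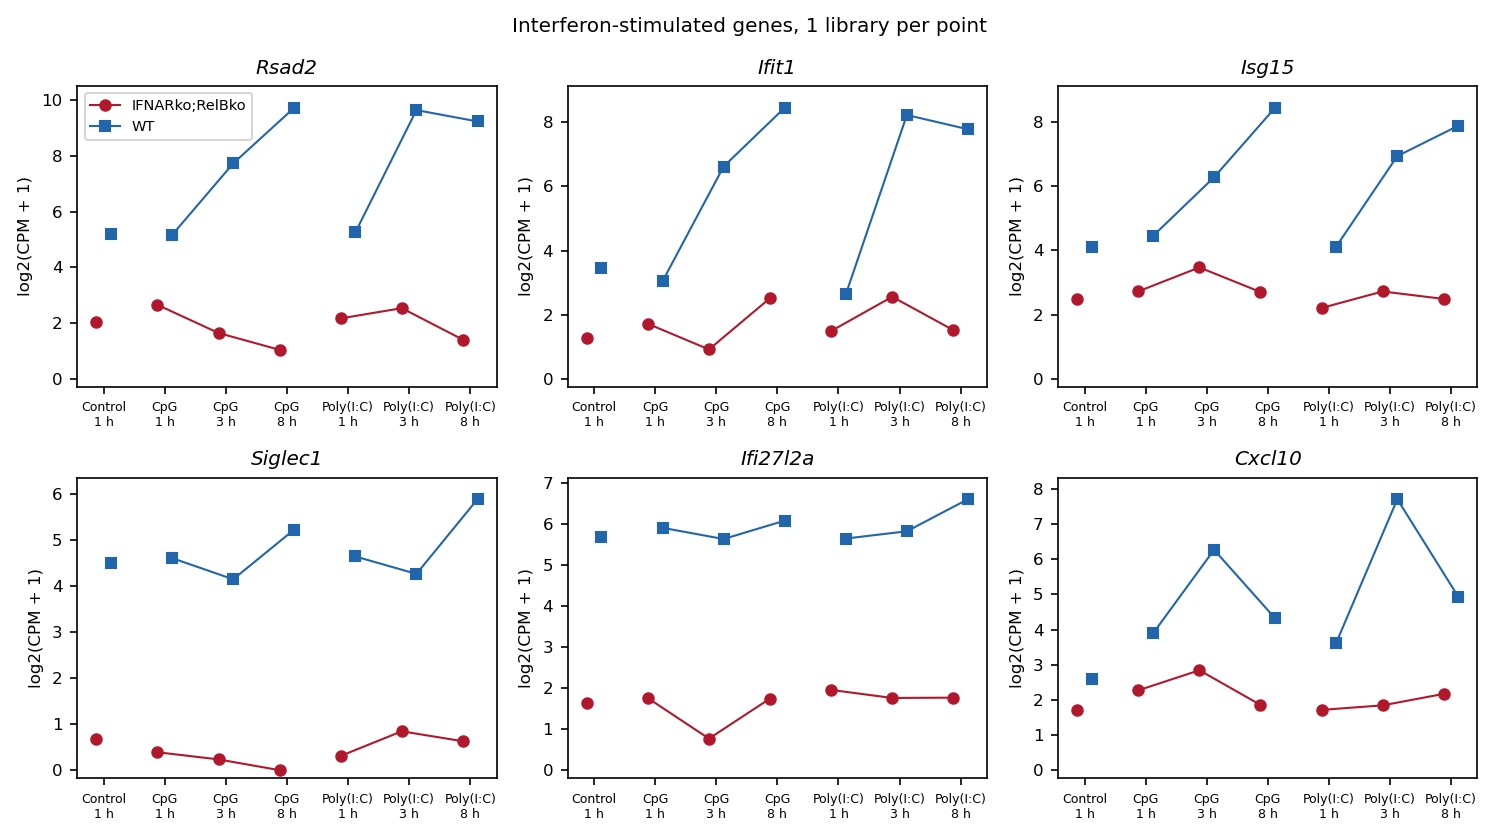
Levels of 6 interferon-induced genes on the log2(CPM + 1) scale (vertical axis) by condition (horizontal axis), 1 library per point, double knockout in red circles and WT in blue squares. WT levels of Rsad2, Ifit1 and Cxcl10 climb by 3 h, whereas those of Siglec1 and Ifi27l2a are high from the control on; the double knockout points stay under 4 log2 units in every panel and below the WT point at every condition.

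Rsad2, the antiviral enzyme viperin, had the largest fall. Its level had a lowest value of 1.05, a median of 3.10 and a highest value of 5.28 CPM in double knockout cells, against 34.8, 211 and 849 CPM in WT cells. The groups did not overlap, and every double knockout library was below every WT library, controls included. The difference was -5.50 ± 0.91 (adjusted p = 0.0015, limma). Ifit1, which binds viral RNA lacking a host-type cap, ran from 0.882 through a median of 1.86 to 4.88 CPM in double knockout cells, against 5.19, 97.6 and 351 CPM in WT cells. Its ranges came close at control and 1 h and were far apart later (-4.04 ± 0.84, adjusted p = 0.0042). Isg15, a ubiquitin-like modifier named here after its values were seen, ran from 3.61 through 5.51 to 10.1 CPM in double knockout cells, against 16.1, 76.5 and 348 CPM in WT cells (-3.35 ± 0.63, adjusted p = 0.0026). Again no double knockout library reached the lowest WT library.

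Other members were already far apart at rest. Siglec1, a sialic acid receptor of macrophages, ran from 0 through 0.311 to 0.797 CPM in double knockout cells, against 16.8, 23.5 and 58.5 CPM in WT cells. These are 25 double knockout reads and 2795 WT reads over 7 libraries each. Ifi27l2a, an interferon-induced membrane protein, ran from 0.706 through 2.38 to 2.89 CPM in double knockout cells, against 48.8, 55.8 and 96.8 CPM in WT cells. For both genes the gap was already present in the 1 h controls and did not pass the test for a change with time. The estimates were -4.32 ± 0.22 for Siglec1 (adjusted p = 6.5e-08) and -4.29 ± 0.14 for Ifi27l2a (adjusted p = 1.8e-09).

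Of 7 oligoadenylate synthetase genes in the list, a family that senses double-stranded RNA, 6 were called lower. Oas1a ran from 1.32 through 1.70 to 3.10 CPM in double knockout cells, against 26.8, 32.7 and 117 CPM in WT cells (-4.00 ± 0.29). Oas2, Oas3, Oas1g and Oasl1 fell by 4.02, 3.98, 3.86 and 3.83 on the log2 scale, each lower in 7 of 7 pairs. Oasl2 fell by 2.96, and Oas1b was not called (-0.56 ± 0.34, adjusted p = 0.18). Oas1a and Oas1g are close copies and may share reads. Rtp4, a receptor-transporting protein induced by interferon, fell by 4.18 and Ifit2 by 3.79. Ifitm3, which blocks virus entry, had a smaller fall with little spread (-1.41 ± 0.06, adjusted p = 9.8e-09). Mx1, a dynamin-like GTPase active against influenza viruses and chosen after its values were seen, was among the 8 members not called (-0.74 ± 0.43, adjusted p = 0.16). It was higher in the double knockout in 3 pairs, at control and 1 h, and lower in the other 4.

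The promoters of 3 of these genes are shown because interferon-activated factors bind repeats of GAAA. Each sequence spans 250 bases before to 50 after the annotated start in RefSeq (GRCm38.p6). Capitals mark matches to GAAANNGAAA or its reverse complement TTTCNNTTTC, overlapping matches joined. Rsad2 lies at chr12:26456403-26456702 on the minus strand, Ifit1 at chr19:34640639-34640938 on the plus strand and Isg15 at chr4:156200769-156201068 on the minus strand.
Rsad2: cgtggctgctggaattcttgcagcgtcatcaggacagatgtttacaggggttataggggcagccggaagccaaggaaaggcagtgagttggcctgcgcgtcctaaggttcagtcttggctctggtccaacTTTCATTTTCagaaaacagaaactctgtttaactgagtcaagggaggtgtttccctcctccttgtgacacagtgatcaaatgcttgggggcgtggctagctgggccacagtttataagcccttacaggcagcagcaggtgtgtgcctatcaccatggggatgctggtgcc
Ifit1: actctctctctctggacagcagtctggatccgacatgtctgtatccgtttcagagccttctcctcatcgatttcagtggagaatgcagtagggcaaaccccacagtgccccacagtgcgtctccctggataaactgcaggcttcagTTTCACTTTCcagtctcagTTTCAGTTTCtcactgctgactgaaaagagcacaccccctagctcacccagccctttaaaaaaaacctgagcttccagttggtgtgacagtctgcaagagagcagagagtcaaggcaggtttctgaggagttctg
Isg15: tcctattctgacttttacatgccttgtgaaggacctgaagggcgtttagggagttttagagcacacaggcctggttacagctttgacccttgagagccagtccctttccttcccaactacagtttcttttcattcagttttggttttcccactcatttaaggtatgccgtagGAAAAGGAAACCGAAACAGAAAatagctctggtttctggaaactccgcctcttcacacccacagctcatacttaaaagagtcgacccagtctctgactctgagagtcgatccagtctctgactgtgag
Rsad2 holds 1 match, Ifit1 holds 2 and Isg15 holds 3 that overlap. Across RefSeq promoters of this length the motif was found in 1079 of 27025 genes (3.99%), and among genes tested here in 369 of 9326 (3.96%). Of the antiviral list, 44 members had a promoter in the table and 21 held the motif (47.7%). Irf7, described next, held 0 matches in its window. An NF-kB motif, GGGNNTTTCC or its reverse complement GGAAANNCCC, was found in 512 of all promoters (1.89%) and in 0 of the 44. A match is a description of letters, not of binding.

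Factors of the interferon pathway split. Irf7, which amplifies interferon production, ran from 1.57 through 3.07 to 7.41 CPM in double knockout cells, against 23.8, 32.4 and 233 CPM in WT cells. No ranges overlapped, and the difference was -3.56 ± 0.68 (adjusted p = 0.0028). Irf8, a factor of dendritic cell development, ran from 58.9 through 85.0 to 160 CPM in double knockout cells, against 192, 252 and 333 CPM in WT cells (-1.53 ± 0.17, adjusted p = 7.9e-05). Irf3 and the receptor kinase Tyk2 were higher, at +0.86 ± 0.06 and +0.61 ± 0.05, in 7 of 7 pairs. Over the list of 16, 3 were called higher and 7 lower, against 2 and 9 under median-ratio scaling. Over all genes 52.9% were higher and 15.8% lower, against 28% and 28.4% under that scaling. Ifnb1, a type I interferon made early, was below the filter of the fit, with 1 double knockout read and 50 WT reads over 7 libraries each. The ratio per read sequenced was 0.0319, with a 95% exact conditional interval of 0.000792 to 0.186. Reads were pooled over conditions without pairing, so the deep WT library at 8 h of CpG weighs most in it.

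Guanylate-binding proteins (GBP) and immunity-related GTPases (IRG), which attack vacuoles of intracellular pathogens, were lower as well. Of 15 tested, 9 were called lower and 0 higher, and the list median was -0.823. The shares over all genes were 15.8% lower and 52.9% higher. Iigp1 ran from 6.88 through 11.4 to 16.1 CPM in double knockout cells, against 77.4, 85.1 and 288 CPM in WT cells, with no overlap (-3.28 ± 0.36, adjusted p = 0.00014). Gbp8 fell by 1.19, Gbp7 by 0.83 and Gbp2 by 0.52 on the log2 scale. The GBP genes are close copies, and reads may be split among them.

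Cxcl10, a chemokine that draws T cells through CXCR3, ran from 2.28 through 2.62 to 6.18 CPM in double knockout cells, against 5.02, 19.0 and 208 CPM in WT cells. The highest double knockout library lay above the WT control alone, and the difference was -2.70 ± 0.57 (adjusted p = 0.0043). Cxcl9, which acts through the same receptor, was not called (-0.87 ± 0.35, adjusted p = 0.054; 0.039 under median-ratio scaling).

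Inflammatory chemokines and cytokines differed by gene. Of 17 chemokines tested, 11 were called lower and 2 higher, with a median of -0.944. Among all genes tested, 15.8% were called lower and 52.9% higher. Ccl3, a neutrophil and monocyte attractant, ran from 8.65 through 15.9 to 216 CPM in double knockout cells, against 17.8, 40.9 and 698 CPM in WT cells. The ranges overlapped across conditions, and the gene was lower in 7 of 7 pairs (-1.22 ± 0.11, adjusted p = 2.1e-06). Ccl24, an eosinophil attractant, fell by 1.12 ± 0.07. The 2 that rose were Ccl22 and Ccl5. Ccl22, which attracts regulatory and type 2 T cells and marks mature dendritic cells, ran from 11103 through 12931 to 26184 CPM in double knockout cells, against 4369, 5258 and 15434 CPM in WT cells (+1.22 ± 0.09, adjusted p = 7.3e-07). Ccl5, a T cell attractant, ran from 984 through 1185 to 2669 CPM in double knockout cells, against 378, 557 and 1159 CPM in WT cells (+1.22 ± 0.09, adjusted p = 8.0e-07). Both were higher in 7 of 7 pairs.

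Of 19 cytokines, 4 were called higher and 6 lower, where 52.9% of all genes were higher and 15.8% lower. Tnf, an early inflammatory cytokine, had 8.21 CPM in double knockout control cells, against 9.75 CPM in WT control cells. At 3 h of CpG it had 138 CPM in double knockout cells, against 656 CPM in WT cells (-1.68 ± 0.32 over all conditions, adjusted p = 0.0026). It was lower in 7 of 7 pairs, with the smallest gap in the control pair. Csf1, a macrophage growth factor, and Osm fell by 0.74 and 0.86. Tnfsf15, a TNF family ligand, rose (+1.79 ± 0.20, adjusted p = 7.6e-05). Il6 and the interleukin-12 subunit Il12b were not called, at -0.21 ± 0.45 and -0.21 ± 0.37. Their pairs differed in sign. Il6 had 100 CPM at 3 h of CpG in double knockout cells, against 325 CPM in WT cells. At 8 h of CpG it had 94.1 CPM, against 334 CPM in WT cells. In the control pair it was higher in the double knockout, at 14.3 CPM against 4.4 CPM in WT cells. The same held at 1 h of CpG and 8 h of Poly(I:C). Il12b had 834 CPM at 3 h of CpG in double knockout cells, against 504 CPM in WT cells, and 360 CPM at 8 h, against 848 CPM in WT cells.

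**Figure D2:**
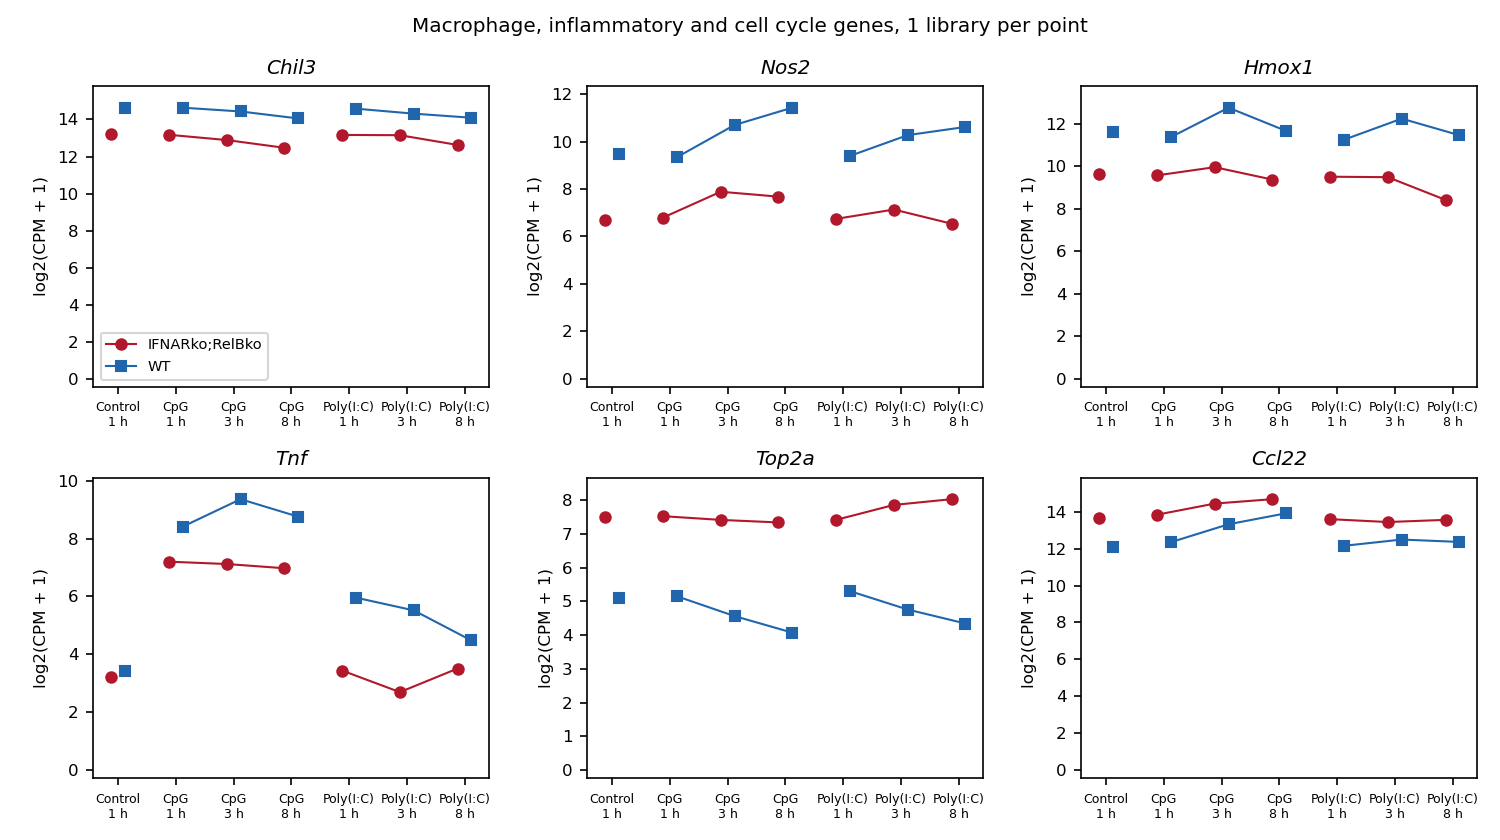
Levels of 6 further genes on the log2(CPM + 1) scale (vertical axis) by condition (horizontal axis), 1 library per point, double knockout in red circles and WT in blue squares. Chil3, Nos2, Hmox1 and Tnf lie lower in the double knockout and Top2a and Ccl22 higher at every condition, with the smallest Tnf gap in the control pair.

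Maturation genes differed by member, and as a list their calls were near the shares over all genes. Of 30 genes, 14 were called higher and 6 lower, where 52.9% of all genes were called higher and 15.8% lower, and the list median was 0.174, against +0.245 for all genes. Under median-ratio scaling 10 were higher and 10 lower, where 28% of all genes were higher and 28.4% lower. Socs2, a feedback inhibitor of cytokine signalling, ran from 384 through 415 to 458 CPM in double knockout cells, against 111, 131 and 161 CPM in WT cells (+1.62 ± 0.07, adjusted p = 1.2e-08). Its groups were wide apart and nearly flat across conditions. Cd40, the costimulatory receptor, had 41.8 CPM in double knockout control cells, against 11.5 CPM in WT control cells, and 291 CPM at 8 h of CpG, against 262 CPM in WT cells. It was higher in 7 of 7 pairs (+1.25 ± 0.24, adjusted p = 0.0020). Ccr7, which guides dendritic cells to lymph nodes, rose by 0.58 ± 0.06 (adjusted p = 3.8e-06), and Icosl, the ligand of ICOS, by 1.21 ± 0.10. Aldh1a2, a retinoic acid enzyme that mature dendritic cells express, was not called (+0.02 ± 0.08, adjusted p = 0.84), and its sign changed under median-ratio scaling.

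Among genes of the NF-kB pathway, 5 of 17 were called higher and 5 lower, against 2 and 9 under median-ratio scaling, where 28% of all genes were higher and 28.4% lower. Without that scaling 52.9% of all genes were higher and 15.8% lower. Map3k14, which encodes NIK, ran from 212 through 463 to 495 CPM in double knockout cells, against 46.5, 218 and 235 CPM in WT cells. It was higher in 7 of 7 pairs (+1.36 ± 0.14, adjusted p = 2.3e-05), and the 3 h CpG library was the lowest of each genotype. Nfkb2, the precursor of p52, fell by 0.28 ± 0.08 (adjusted p = 0.0066), in 6 of 7 pairs. Nfkb1 was not called (+0.14 ± 0.06, adjusted p = 0.067), and its sign changed under median-ratio scaling. Tnfrsf1b, a TNF receptor, fell by 0.63. The kinase genes Chuk and Ikbkb, called at +0.32 and +0.27, were not called under median-ratio scaling. Cyld, a deubiquitinase that restrains NF-kB, rose by 0.66.

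Antigen presentation genes were lower on balance over the 7 conditions, class II less so at 8 h. For MHC class I and the immunoproteasome, 12 of 18 were called lower and 4 higher, where 15.8% of all genes were lower and 52.9% higher, with a median of -0.574. Under median-ratio scaling 14 were lower and 2 higher. B2m, the shared light chain, ran from 1617 through 1719 to 1788 CPM in double knockout cells, against 3117, 3464 and 3840 CPM in WT cells (SE 0.05 log2 units, adjusted p = 4.5e-08). H2-K1, a classical heavy chain, fell by 0.81 ± 0.05. H2-Q7, a non-classical heavy chain, ran from 55.9 through 70.6 to 80.5 CPM in double knockout cells, against 216, 259 and 288 CPM in WT cells (-1.85 ± 0.05, adjusted p = 1.6e-09). None of these ranges overlapped. H2-Q6 and H2-Q7 are close copies and may share reads. For MHC class II, 6 of 12 were called lower and 2 higher, against 10 and 1 under median-ratio scaling. The class II median lay between -0.409 and -0.498 at control, 1 h and 3 h. It was +0.139 at 8 h of CpG and -0.073 at 8 h of Poly(I:C), where all genes tested had medians of +0.329 and +0.299. The chains H2-Aa and H2-Eb1 fell by 0.52 and 0.66, and Ctss, which trims the invariant chain, by 0.92, while Ciita, the transactivator of class II genes, rose by 0.53 ± 0.05.

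Nucleic acid sensors and Toll-like receptors included 11 of 20 called lower and 6 higher, where 15.8% of all genes were lower and 52.9% higher. Under median-ratio scaling 13 were lower and 2 higher. Tlr7, the endosomal sensor of single-stranded RNA, ran from 3.35 through 6.94 to 8.39 CPM in double knockout cells, against 26.8, 34.2 and 47.0 CPM in WT cells (-2.23 ± 0.13, adjusted p = 6.9e-08). Tlr13, which senses bacterial ribosomal RNA, fell by 1.44 ± 0.06 with no overlap. Of the receptors of the ligands used, Tlr3 averaged 1.75 CPM in double knockout cells and 5.40 CPM in WT cells (-1.08 ± 0.16, adjusted p = 0.00010). Tlr9 averaged 66.4 CPM in double knockout cells and 55.7 CPM in WT cells (+0.26 ± 0.07, adjusted p = 0.0076), a difference that was absent under median-ratio scaling, which changed its sign. Mavs, the adaptor of cytosolic RNA sensors, rose by 0.66.

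Macrophage genes were lower on balance. Of 24 markers tested, 20 were called lower and 2 higher, with a median of -1.021. Among all genes tested, 15.8% were called lower and 52.9% higher. Msr1, a scavenger receptor, ran from 17.8 through 25.3 to 54.3 CPM in double knockout cells, against 93.0, 148 and 261 CPM in WT cells (-2.39 ± 0.06, adjusted p = 4.4e-10). Mertk, a receptor for dying cells, ran from 1.40 through 1.76 to 4.38 CPM in double knockout cells, against 17.4, 21.2 and 34.2 CPM in WT cells (-2.85 ± 0.14). Apoe, a lipid carrier, ran from 1.32 through 2.12 to 3.19 CPM in double knockout cells, against 16.8, 24.4 and 29.7 CPM in WT cells (-3.01 ± 0.13). Cd68 fell by 1.21 ± 0.06. In all 4 the genotypes did not overlap.

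Of genes that IL-4 induces in macrophages, 10 of 16 were called lower and 3 higher. The shares over all genes were 15.8% lower and 52.9% higher. Chil3, a chitinase-like protein and among the most abundant transcripts here, ran from 5676 through 9094 to 9421 CPM in double knockout cells, against 17023, 22110 and 25482 CPM in WT cells (-1.44 ± 0.06, adjusted p = 9.2e-09). It has close copies with which it may share reads. Arg1, which degrades arginine, ran from 333 through 641 to 970 CPM in double knockout cells, against 808, 1951 and 3811 CPM in WT cells (-1.72 ± 0.11, adjusted p = 3.7e-07). Nos2, the inducible nitric oxide synthase that uses the same substrate, was chosen after its values were seen. It ran from 92.0 through 110 to 236 CPM in double knockout cells, against 649, 1239 and 2766 CPM in WT cells (-3.11 ± 0.19, adjusted p = 3.0e-06). Both arginine enzymes were thus lower, and Nos2 had no overlap.

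Redox, glycolysis and hypoxia genes were lower too. Of 15 targets of the oxidative stress factor Nrf2, 13 were called lower and 1 higher, with a median of -0.861. Among all genes tested, 15.8% were called lower and 52.9% higher. Hmox1, which degrades haem, ran from 341 through 728 to 994 CPM in double knockout cells, against 2436, 3087 and 6933 CPM in WT cells (-2.34 ± 0.17, adjusted p = 5.4e-06). Slc7a11, the cystine importer, ran from 198 through 319 to 463 CPM in double knockout cells, against 577, 886 and 1616 CPM in WT cells (-1.50 ± 0.17). Fth1, the ferritin heavy chain, fell by 1.05 ± 0.10. Glycolysis and hypoxia genes counted 22 of 23 called lower and 0 higher, against the same 15.8% and 52.9%, with a median of -0.618. Hif1a, the oxygen-sensitive factor itself, ran from 243 through 247 to 290 CPM in double knockout cells, against 429, 501 and 602 CPM in WT cells (-0.97 ± 0.06). Pfkfb3, an activator of glycolysis, fell by 1.15 ± 0.06.

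Cell cycle genes were the clearest rise. Of 32 proliferation genes, 31 were called higher and 0 lower, where 52.9% of all genes were called higher, and 29 rose by at least 1 log2 unit. The list median was +1.992, and 31 stayed higher under median-ratio scaling. Their sum was 1658 to 2485 CPM in double knockout libraries and 399 to 816 CPM in WT libraries. Top2a, a DNA topoisomerase of dividing cells chosen after its values were seen, ran from 161 through 179 to 261 CPM in double knockout cells, against 15.9, 26.1 and 38.6 CPM in WT cells (+2.82 ± 0.18, adjusted p = 3.0e-06). Plk1, a mitotic kinase, ran from 18.6 through 26.3 to 37.7 CPM in double knockout cells, against 0.758, 2.74 and 3.78 CPM in WT cells (+3.04 ± 0.15). Neither range overlapped. Hmgb2 and the ribonucleotide reductase subunit Rrm1 rose by 1.92 and 1.52.

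**Figure D3:**
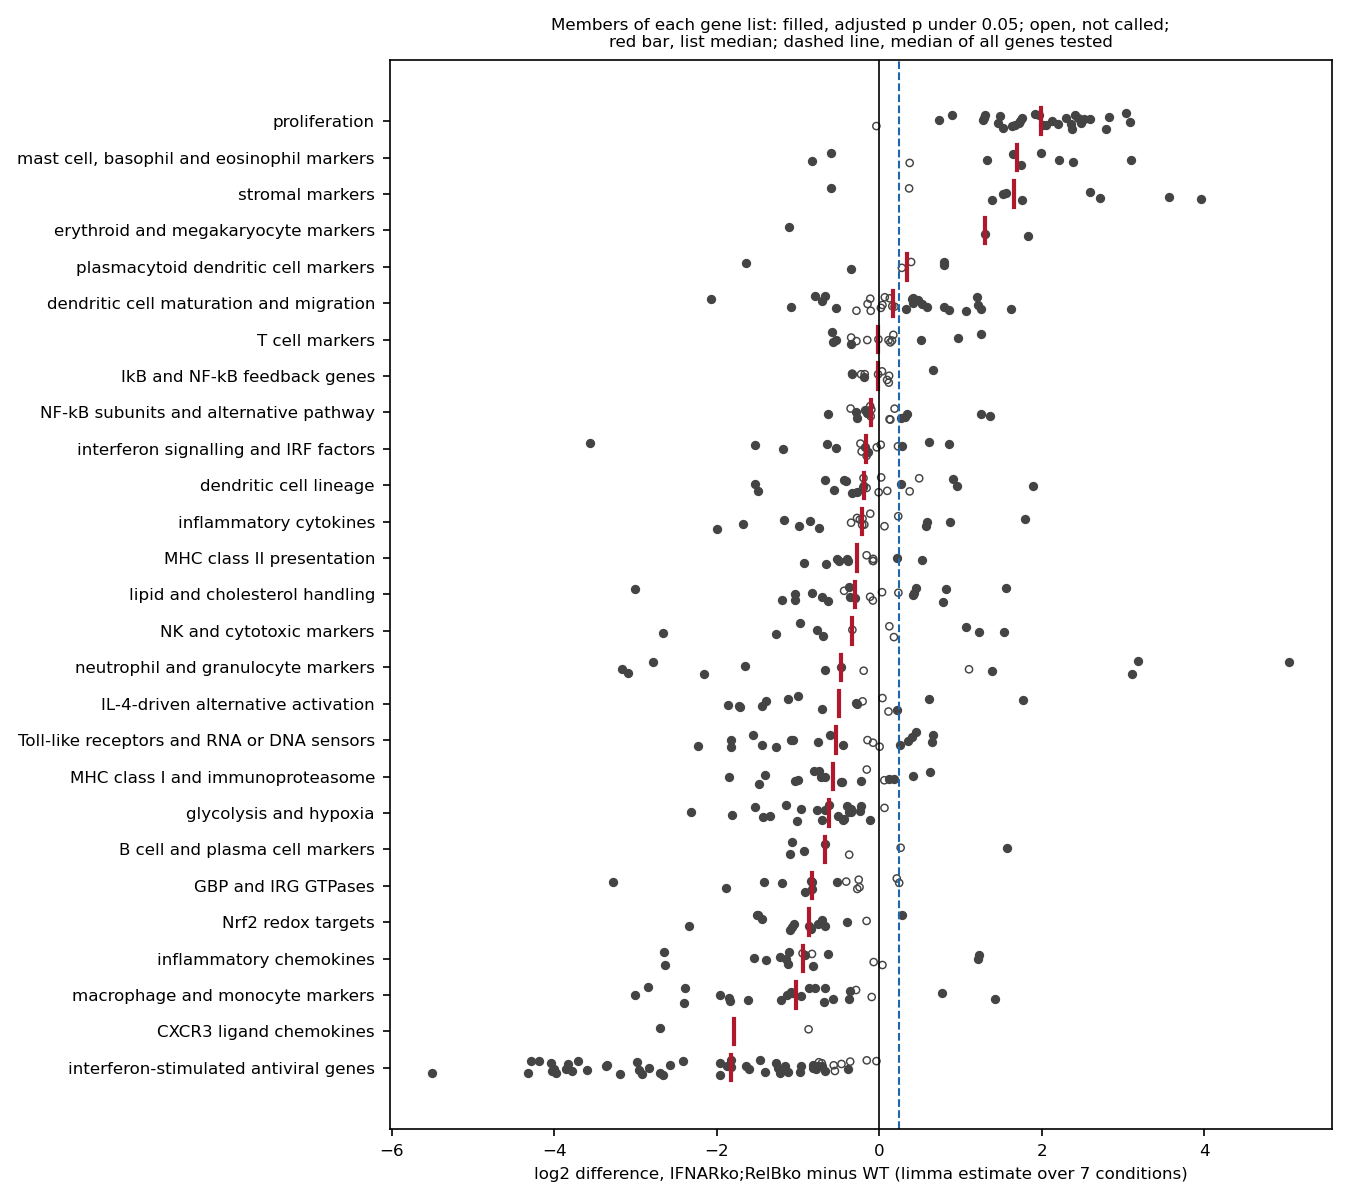
Difference of each tested list member (horizontal axis, log2, double knockout minus WT over 7 conditions) by gene list (vertical axis). Filled points passed the test, open points did not, red bars are list medians, and the dashed line is the +0.245 median of all genes; proliferation lies farthest right and interferon-stimulated antiviral genes farthest left.

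The 12 largest rises were Retnlg, Enpp2, Col1a2, Lrrc16b, Ccr3, Col1a1, Ctgf, Mpo, Npnt, Ctsg and 2 predicted genes. Retnlg, a resistin-like protein of granulocytes, ran from 78.8 through 89.8 to 147 CPM in double knockout cells, against 0.900, 1.96 and 3.93 CPM in WT cells (+5.04 ± 0.21, adjusted p = 7.6e-08). Ccr3, the eotaxin receptor of eosinophils, ran from 24.2 through 28.4 to 44.9 CPM in double knockout cells, against 0.430, 1.52 and 2.66 CPM in WT cells (+3.64 ± 0.13). Mpo and Ctsg, which fill the granules of myeloid precursors, rose by 3.18 and 3.11, and Cpa3, a mast cell protease, by 3.10. Enpp2, which makes lysophosphatidic acid, rose by 4.56. In each case every double knockout library exceeded every WT library.

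Granulocyte genes held large changes of both signs. Of 13 neutrophil and granulocyte markers, 4 were called higher and 7 lower, where 52.9% of all genes were higher and 15.8% lower. S100a8, a calcium-binding protein of mature neutrophils and monocytes, ran from 3.63 through 4.61 to 6.29 CPM in double knockout cells, against 31.3, 38.4 and 52.1 CPM in WT cells (-2.79 ± 0.11, adjusted p = 9.2e-09). Its partner S100a9 fell by 3.16 ± 0.15, while Retnlg, Mpo and Ctsg rose. Mmp8, a collagenase of neutrophil granules, fell by 1.65 ± 0.06.

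Collagen genes marked the stromal signal. Col1a2 ran from 10.6 through 14.5 to 19.3 CPM in double knockout cells, against 0, 0 and 0.0860 CPM in WT cells (+3.95 ± 0.13). These are 824 double knockout reads and 1 WT read, a ratio of 1314 per read sequenced with a 95% interval of 235 to 51950 by the exact conditional method. This ratio too pools reads over conditions without pairing. Col1a1 had 638 double knockout reads and 2 WT reads, Sparc 322 double knockout and 3 WT reads, and Bgn 297 double knockout reads and 1 WT read. Of 10 stromal markers tested, 8 were called higher and 1 lower, where 52.9% of all genes were higher and 15.8% lower. Single knockouts summed to 3.32 to 6.53 CPM (RelBko) and 1.84 to 4.44 CPM (IFNARko) on this list, below every double knockout library.

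Dendritic cell lineage genes counted 4 of 21 called higher and 9 lower, where 52.9% of all genes were higher and 15.8% lower. Under median-ratio scaling 3 were higher and 12 lower. Flt3, the receptor of a dendritic cell growth factor, ran from 11.8 through 13.5 to 26.7 CPM in double knockout cells, against 2.01, 3.11 and 7.57 CPM in WT cells (+1.89 ± 0.10, adjusted p = 3.8e-08). Batf3, a factor of cross-presenting dendritic cells, rose by 0.91 ± 0.10, with no overlap. Id2, a regulator of dendritic cell development, fell by 0.67, and Sirpa, a marker of type 2 conventional dendritic cells and macrophages, by 0.56. Of lymphocyte genes, 3 of 15 T cell markers were called higher and 4 lower, and 3 of 11 natural killer and cytotoxic markers were called higher and 5 lower, to be read against the same 52.9% and 15.8%. Gzma, a granzyme, ran from 5.51 through 10.2 to 13.3 CPM in double knockout cells, against 31.8, 75.0 and 92.3 CPM in WT cells (-2.66 ± 0.11). Gzmb was also lower in every pair, whereas Ccl5, in the same list, was higher in every pair. The summed list had a median of 1292 CPM in double knockout libraries and 756.5 CPM in WT libraries. Of T cell markers, Cd8b1 and Cd5 were higher in every pair, and Il7r and Cd3g were lower in every pair.

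The genotype difference changed with time. The difference at 3 and 8 h (4 pairs) was set against that at control and 1 h (3 pairs): 581 genes were called higher (4.62%) and 380 lower (3.02%). Among antiviral genes 27 of 56 were called lower late and 0 higher. Ifit2 changed by -5.04 ± 0.23 (adjusted p = 2.1e-07), Ifit1 by -4.35 ± 0.24 and Rsad2 by -4.51 ± 0.63 (adjusted p = 0.013). Cmpk2, a mitochondrial nucleotide kinase beside Rsad2 and chosen after its values were seen, had 8.01 CPM in double knockout control cells, against 8.17 CPM in WT control cells. At 3 h of Poly(I:C) it had 6.38 CPM, against 265 CPM in WT cells (late minus early -4.86 ± 0.32). Mx1 also changed (-2.18 ± 0.21); in WT cells it had 80.9 CPM at control and 456 CPM at 3 h of Poly(I:C).

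Of Nrf2 targets, 11 of 15 were called lower late and 0 higher, and 9 to 12 when any 1 condition was left out. Over all genes tested 3.02% were called lower late. Hmox1 had 804 CPM in double knockout control cells, against 3087 CPM in WT control cells, and 994 CPM at 3 h of CpG, against 6933 CPM in WT cells (late minus early -0.90 ± 0.15, adjusted p = 0.0033). Nampt, which makes a precursor of NAD, ran from 126 through 139 to 194 CPM in double knockout cells, against 241, 599 and 967 CPM in WT cells, nearly flat in the double knockout (-1.27 ± 0.10, adjusted p = 1.5e-05). Of proliferation genes 15 of 32 were called higher late and 0 lower, where 4.62% of all genes were higher late. E2f2, a cell cycle factor, had 57.0 CPM in double knockout control cells, against 53.8 CPM in WT control cells, and 17.3 CPM at 8 h of CpG, against 5.26 CPM in WT cells (late minus early +1.29 ± 0.14). Its difference over all 7 conditions was not called under median-ratio scaling. Sla, an adaptor that dampens receptor signalling, changed by the same size (+1.29 ± 0.12). Cd40 went the other way, its excess being smaller late (-1.13 ± 0.24, adjusted p = 0.022). Macrophage markers kept a median between -0.821 and -1.292 at all 7 conditions. Of the 24 tested, 4 were nevertheless called higher late and 0 lower, where 4.62% of all genes were higher late. With any 1 condition left out, 1 to 5 were called higher late and 0 to 3 lower.

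The counts of the time contrast depended on which pairs entered. Leaving out an early pair also leaves fewer early pairs for the test. Without the control pair 189 genes were higher and 147 lower, without the 1 h CpG pair 141 and 146, without the 1 h Poly(I:C) pair 142 and 127, and without the 3 h CpG pair 935 and 552. Antiviral genes called lower late then numbered 13, 17, 15 and 45 in the same order of omission, and proliferation genes called higher 10, 6, 5 and 20. GBP and IRG genes called lower late numbered 8, and 4, 3, 3 and 8 with those pairs left out. Leaving out another late pair gave 454 genes higher and 332 lower (8 h CpG), 650 and 400 (3 h Poly(I:C)), and 525 and 344 (8 h Poly(I:C)). Under median-ratio scaling 353 genes were higher (2.81%) and 560 lower (4.45%).

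**Figure D4:**
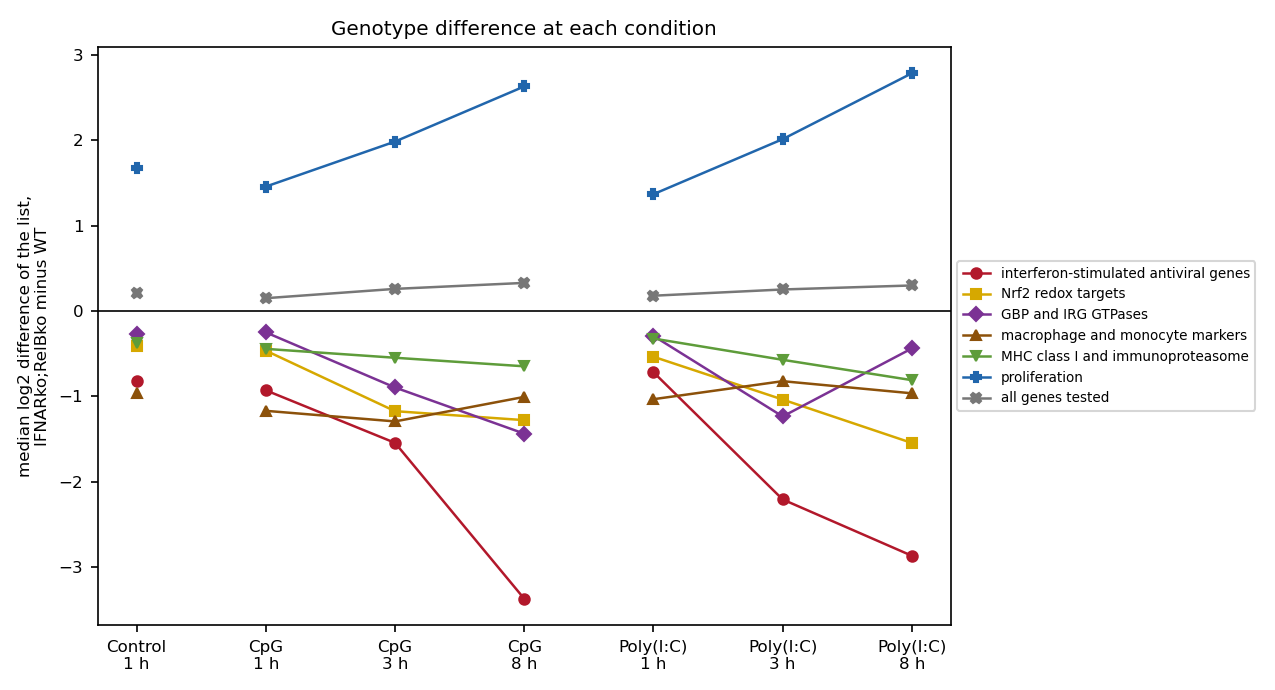
Median difference of 6 gene lists and of all genes tested (vertical axis, log2, double knockout minus WT) at each of the 7 conditions (horizontal axis), 1 pair of libraries per point. The antiviral median is -0.816 at control, -3.367 at 8 h of CpG and -2.864 at 8 h of Poly(I:C), whereas the macrophage median stays between -0.821 and -1.292.

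The difference after CpG was then compared with that after Poly(I:C), over 12 libraries. No gene was called in either direction (0 higher, 0%; 0 lower, 0%) by limma or by voom, and 209 of 12470 genes (1.68%) had an unadjusted p under 0.05. A p that misses the threshold does not show that the ligands gave equal differences; the conditions of a ligand were the only repeats, and they include 1 h and 8 h.

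A fit of all 28 libraries asked whether the double knockout differed from WT by the sum of both single knockout differences. Relative to that sum 1880 genes were higher (14.5%) and 1839 lower (14.2%) in the double knockout, against 1765 (13.6%) and 1978 (15.2%) under median-ratio scaling. The single knockouts share the WT libraries: RelBko had 3048 genes higher (23.5%) and 1322 lower (10.2%) than WT, and IFNARko had 5527 higher (42.6%) and 1795 lower (13.8%). Sex-linked transcripts lead this contrast: Xist averaged 874 CPM in double knockout, 0.444 CPM in RelBko, 0.321 CPM in IFNARko and 667 CPM in WT cells. Ddx3y on the Y chromosome averaged 0.0598 CPM in double knockout, 114 CPM in RelBko, 104 CPM in IFNARko and 0.0790 CPM in WT cells. The single knockout libraries thus differ from the other genotypes in sex-linked RNA, so sex and non-additivity cannot be told apart in this fit. Between double knockout and WT cells Xist was higher in 7 of 7 pairs (+0.40, adjusted p = 0.00015), a call that was lost under median-ratio scaling (adjusted p = 0.13).

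Antiviral genes were lower in the double knockout than in both single knockouts by summed level: 2355 to 2808 CPM in the double knockout, RelBko libraries 3598 to 14548 CPM, IFNARko libraries 3529 to 3895 CPM, and WT libraries 3334 to 14450 CPM. Of 56 members, 11 were called below the sum and 1 above it, where 14.2% of all genes were below and 14.5% above. Ifi27l2a differed from WT by -4.29 in the double knockout, +0.46 in RelBko and -2.31 in IFNARko (non-additivity -2.44, adjusted p = 1.2e-07). Irf7 was not called against the sum (-0.18, adjusted p = 0.90), and differed from WT by -3.56 in the double knockout, +0.08 in RelBko and -3.46 in IFNARko.

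Class I genes departed more evenly, with 18 of 18 called below the sum, where 14.2% of all genes were. H2-Q7 differed from WT by -1.85 in the double knockout, -0.10 in RelBko and -0.37 in IFNARko (non-additivity -1.37, adjusted p = 2.4e-15). GBP and IRG genes counted 13 of 15 below it, and here the list median of IFNARko minus WT was +0.604. Iigp1 differed from WT by -3.28 in the double knockout, -0.20 in RelBko and +0.57 in IFNARko. Gbp2 differed by -0.52 in the double knockout, +0.03 in RelBko and +1.33 in IFNARko. Lymphocyte transcripts were high in the same IFNARko libraries: Ifng, chosen after its values were seen, averaged 2.07 CPM in double knockout, 3.15 in RelBko, 15.3 in IFNARko and 2.05 in WT cells. T cell markers summed to 170 to 327 CPM in double knockout, 243 to 424 in RelBko, 442 to 552 in IFNARko and 256 to 485 in WT libraries. In the same contrast 13 of 15 T cell markers were called below the sum and 1 above, with a median of -2.515. Of 11 natural killer and cytotoxic markers, 8 were below and 1 above, with a median of -2.606. The class I median was -0.565. The part of lymphocyte RNA in the class I, GBP and IRG results was not tested.

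S100a8 and S100a9 lay below WT in the double knockout and not in either single knockout. S100a8 averaged 4.90 CPM in double knockout, 93.6 in RelBko, 47.2 in IFNARko and 39.5 CPM in WT cells (non-additivity -4.25, adjusted p = 3.3e-13). S100a9 differed from WT by -3.16 in the double knockout, +1.56 in RelBko and +0.63 in IFNARko (non-additivity -5.35). Proliferation genes, by contrast, had 0 called above and 1 called below the sum: their medians against WT were +1.992 in the double knockout, +0.369 in RelBko and +1.677 in IFNARko. Apoe averaged 2.22 CPM in double knockout, 2.35 CPM in RelBko, 6.98 CPM in IFNARko and 24.9 CPM in WT cells. It lies within 5 Mb of Relb, a window in which 74.4% of 82 genes tested were called, against 68.7% of all genes. Around Ifnar1 75.6% of 45 were called.

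**Figure D5:**
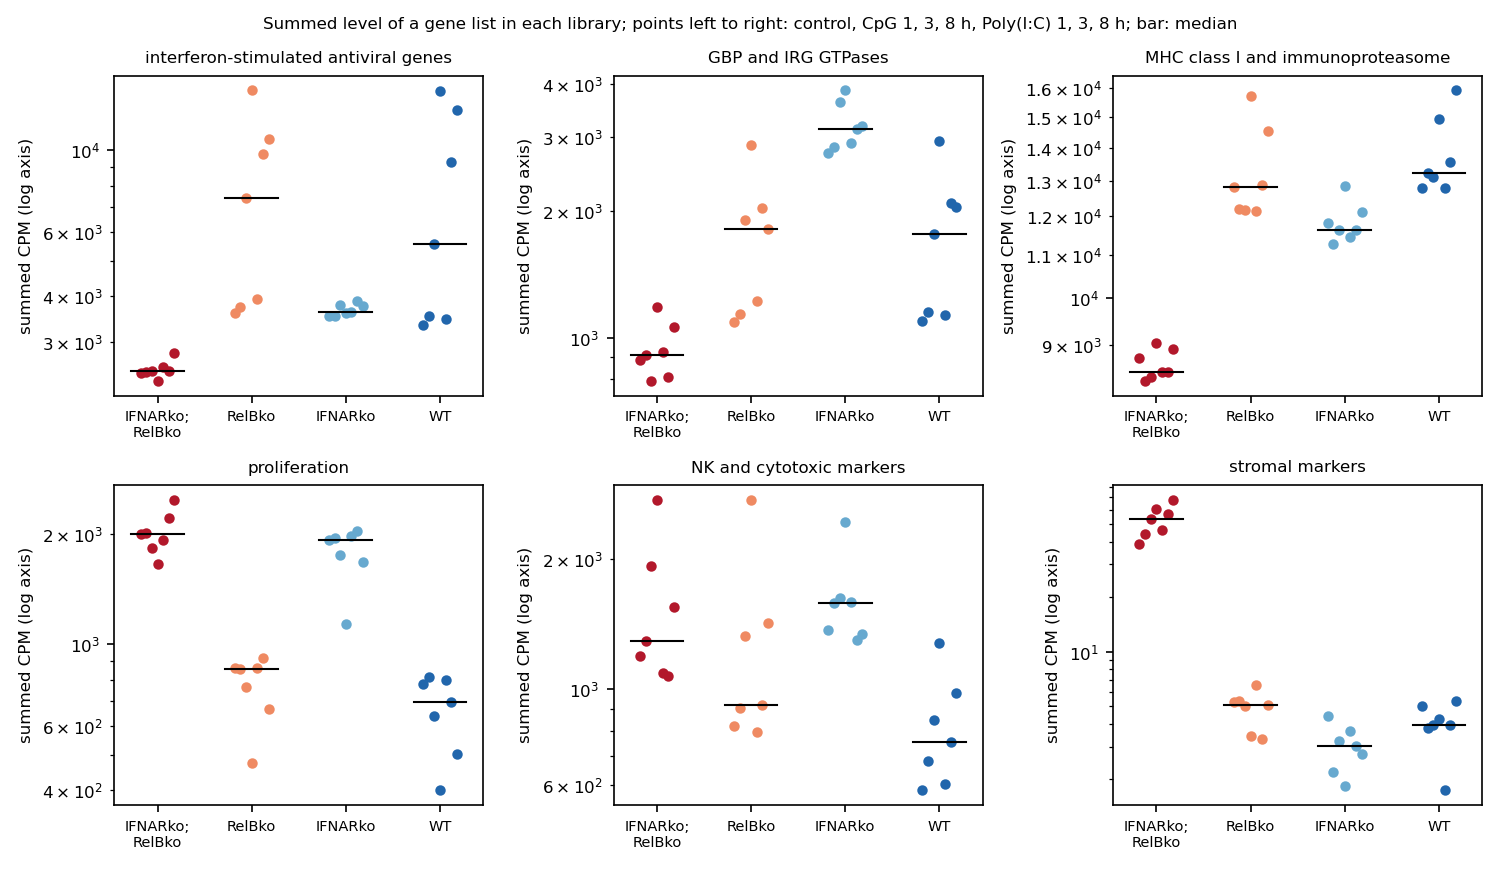
Summed CPM of 6 gene lists (vertical log axes) in the 28 libraries, by genotype (horizontal axis), with the median as a bar; points run from control through CpG and Poly(I:C) times. Antiviral and class I sums are lowest in every double knockout library, the GBP and IRG median is lowest in the double knockout with overlapping points, proliferation sums are high in the double knockout and IFNARko, and stromal sums are high in the double knockout. Natural killer and cytotoxic sums have a median of 1292 CPM in the double knockout and 756.5 CPM in WT. They include the abundant Ccl5, which rose, whereas of 11 members tested 3 were called higher and 5 lower.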

How the data were processed

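RNA-seq was made from 28 mouse libraries, with 50 bp single-end reads per the labels. The authors deposited 1 signal per gene and library in 2 sheets. The lowest value is 1 and totals without it are 1000000, so each signal was read as CPM plus 1, and the authors' added 1 was removed. Dividing by each library's smallest step gave whole reads (100% of values within 0.001), which give the depths and read counts. Per the submitters' processing notes, cutadapt and edgeR were used with mm10; the aligner, counter and annotation are not given in the sources used here. Entries with no gene name (2161, at most 0.116% of a library) and 11 repeated symbols were left out, leaving 24995 genes; the 4 control columns present in both sheets were identical. Coordinates come from a GRCm38 annotation.

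Genes with at least 1 CPM in at least 3 libraries were tested on log2(CPM + 1) in limma 3.58.1 (R 4.3.3, statmod 1.5.0) with condition as a block and Benjamini-Hochberg adjustment; called means an adjusted p under 0.05. Depth limits low genes. The fits were also run on simulated counts, drawn independently for each library and without a shift over many genes. That run cannot support the calls made here. Named genes were a fixed set, the 12 largest rises and 12 largest falls that kept 1 sign in 7 pairs and averaged 5 CPM or more, the 4 members of a list with the smallest adjusted p, and 5 genes of each sign per interaction. Nos2, Top2a, Isg15, Cmpk2, Ifng and Mx1 were added after their values were seen, and Itgax and Cd74 were looked at for the cell type. Members and lists were chosen with earlier results of these data known. Alternatives were other scalings, filters, pseudocounts, fits and leaving out each condition.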

Additional observations from a re-analysis of the deposited data

Results flagged for a closer look

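In these genes the double knockout minus WT difference itself changed between early (control and 1 h) and late (3 and 8 h) pairs, by a test of the change. On the log2 scale the change, late minus early, was 1.44 for 4632428N05Rik, 1.29 for Sla, 1.29 for E2f2, 1.27 for Cyp4f16 and 0.92 for Sash3. It was -5.04 for Ifit2, -4.35 for Ifit1, -2.44 for Xaf1, -2.24 for Slfn8 and -1.27 for Nampt.

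In a second set the double knockout departed from the sum of both single knockout differences, by a test of that departure. On the log2 scale it lay above the sum by 18.23 for Xist, 3.31 for Spint1, 2.58 for Igfbp4, 2.31 for Mfap1a and 1.27 for Kdm6a. The departure was -13.37 for Ddx3y, -12.67 for Eif2s3y, -10.27 for Kdm5d, -9.50 for Uty and -3.89 for Gzmc. Sex-linked transcripts are among the largest of these, and sex cannot be told apart from the departure in the single knockout libraries.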

How the results depend on the processing

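For double knockout against WT, median-ratio scaling gave 3523 genes higher and 3565 lower, and TMM scaling 3389 and 3629. For late minus early, median-ratio scaling gave 353 higher, TMM scaling 310 higher and 599 lower, and plain empirical Bayes 303 and 201. Leaving out 1 condition gave 141 to 935 higher and 127 to 552 lower late. Aldh1a2 became -0.241 under median-ratio scaling and -0.252 under TMM, Tlr9 -0.000 and -0.011, and Kdm6a -0.005 and -0.016. The cause was not tested. Of the values of 154 named genes under 16 settings, 38 lost the call, 22 gained it and 6, those of Aldh1a2, Tlr9 and Kdm6a above, changed sign with a call in either fit. Uncalled estimates near 0, such as those of Nfkb1 and Ifng, also changed sign and are not among the 6. The planned edgeR and DESeq2 tests were not run; TMM factors were computed directly. Voom on reads recovered from the values, added after seeing the data, gave 6597 higher and 2026 lower. Double knockout and WT libraries were paired by condition as a block; without this block 5377 genes were higher and 1499 lower. Libraries differ in depth, which limits genes near 1 CPM.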

Other observations

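The remaining gene groups are given beside the 52.9% of all genes called higher and 15.8% called lower in the double knockout. Of 21 lipid and cholesterol genes tested, 6 were called higher and 10 lower, against 4 and 13 under median-ratio scaling. Of 11 IkB and feedback genes, 1 was called higher and 2 lower, against 1 and 5 under that scaling. Of 10 mast cell, basophil and eosinophil markers, 7 were called higher and 2 lower. Of 7 B cell and plasma cell markers, 1 was called higher and 4 lower, and of 6 plasmacytoid dendritic cell markers, 2 were called higher and 2 lower. Of 3 erythroid and megakaryocyte markers, 2 were called higher and 1 lower.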
